A study of Mus with 2 samples.

Results

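Cxcl12-expressing stromal cells of the marrow were looked for in 2 droplet libraries of mouse hindlimb bone marrow, 1 labelled ground and 1 labelled running. A cell barcode was selected on its own counts of unique molecular identifiers (UMIs, each standing for 1 captured transcript). It had to hold at least 500 UMIs, at least 250 genes and at most 10% mitochondrial UMIs, with at least 3 Cxcl12 UMIs and no UMI of Cdh5 (endothelial) or Cd79a (B lineage). The rule found 69 barcodes among 18089 that passed the filters, 25 of 8909 in the ground library and 44 of 9180 in the running library. The labels do not give the number of mice behind a library, their age, sex or strain, or the running regime. With 1 library per group, no comparison between ground and running has a replicate check, and every interval below is a 95% interval for counting error only.

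Marrow stromal cells of this kind, also called Cxcl12-abundant reticular or leptin receptor-positive cells, form a perivascular network around the sinusoids. They are a main source of the chemokine CXCL12, which retains stem and progenitor cells in the marrow, and of stem cell factor, encoded by Kitl. In the mouse they also express the adipokine gene Adipoq and give rise to marrow adipocytes and bone-forming cells. They are held in place by matrix and are rare in flushed marrow suspensions.

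The 69 barcodes were divided into 44 and 25 by blood-cell marker share and Cxcl12 share. The 44 barcodes, called the core here, had at most 5% of their UMIs from blood-cell markers and at least 50 Cxcl12 UMIs per 10000 UMIs. Those limits were chosen after the values were seen, so the core describes these libraries and its Cxcl12 level is bounded below by the choice. Core cells numbered 20 in the ground library and 24 in the running library. Cxcl12 took a median of 266 UMIs per 10000 in ground core cells, with a lowest of 52.4 and a highest of 386. In running core cells the median was 326, the lowest 55.0 and the highest 496. Per-cell values of the 2 libraries overlapped over most of their range.

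The other 25 members comprised 5 ground and 20 running barcodes. In 16 of them, 2 ground and 14 running, neutrophil markers made up 10.8% to 46.3% of UMIs. These barcodes held a median of 6.5 Cxcl12 UMIs, from 3 to 81, and some carried other stromal transcripts too. A ground barcode with 52 Cxcl12 UMIs, for example, held 34 Igfbp5 and 52 Ibsp UMIs. In another 2, both from the ground library, erythroid markers made up 33.0% and 43.6% of UMIs. The last 7 held few neutrophil or erythroid transcripts and between 1.59 and 38.4 Cxcl12 UMIs per 10000. Of these 7, 3 running barcodes carried T or NK cell markers at 0.69% to 1.07% of UMIs. Another running barcode carried stem or progenitor markers at 2.17% of its 31477 UMIs, and another carried monocyte markers at 1.93%. The last running barcode had erythroid markers at 0.83%. The ground barcode, with 8 Cxcl12 and 6 Ibsp UMIs, stood out for no blood-cell list and had 0.91% neutrophil markers, within the range of the core. Relative to the core, the leading genes of the 25 barcodes included Mmp8, a neutrophil granule collagenase gene, and Ptprc, which encodes a surface protein of all leukocytes.

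**Figure D1:**
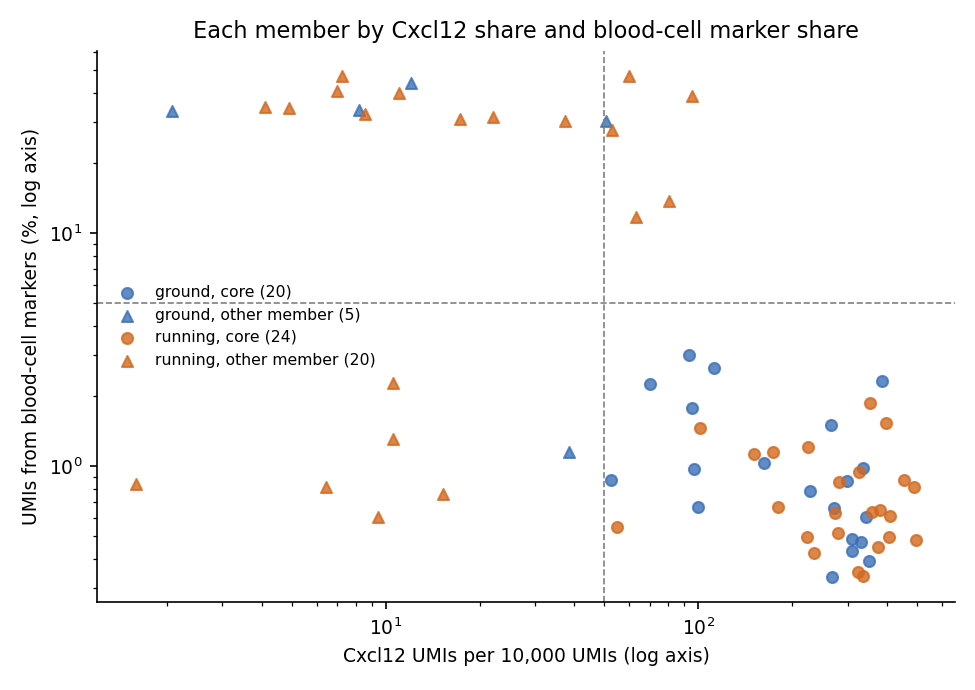
Each point is 1 of the 69 members, placed by its Cxcl12 UMIs per 10000 UMIs (log axis) and by the percentage of its UMIs from blood-cell markers (log axis). Circles are the 44 core barcodes, below 5% and right of 50, and triangles are the 25 others, of which 20 came from the running library.

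Cxcl12 UMIs were also found in barcodes of cell types that should lack the gene. The neutrophil gate took barcodes with at least 20 UMIs of both S100a8 and S100a9, no Cd79a UMI and under 3 Cxcl12 UMIs. It therefore held no member. In it, 0.546% of ground barcodes and 1.88% of running barcodes held a Cxcl12 UMI, at median depths of 6768 and 5069 UMIs. In the B lineage gate, also limited to under 3 Cxcl12 UMIs, the shares were 0.830% and 1.66%, at median depths of 3382 and 3707 UMIs. The running library thus carried more Cxcl12 in neutrophil barcodes, the same kind of barcode that made up 14 of its 44 members and 2 of the 25 ground members. Whether free RNA or joined cells put Cxcl12 into these barcodes was not tested. The doublet caller Scrublet marked 1 of the 69 members.

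Just outside the rule, 213 barcodes held 1 Cxcl12 UMI and 12 held 2, against 5 members with 3 and 3 members with 4. The members with 3 UMIs had a median of 34.4% blood-cell marker UMIs, and the 12 barcodes with 2 UMIs had 30.9%. Cd79a removed 10 barcodes with 3 or more Cxcl12 UMIs, 5 per library, among them 1 with 351 Cxcl12 UMIs, more than the 338 of the richest member. Cdh5 removed 1. The libraries shared 24 barcode sequences, none of them a member.

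Members made up 0.281% of ground barcodes past the filters (Clopper-Pearson interval 0.182% to 0.414%) and 0.479% of running barcodes (0.348% to 0.643%). The ratio of running over ground was 1.71 (1.02 to 2.91). For the core the shares were 0.224% and 0.261%, with a ratio of 1.16 (0.616 to 2.22). Leaving out members with more than 5% blood-cell marker UMIs gave a ratio of 1.39 (0.768 to 2.55). The excess of members in the running library was therefore carried mainly by the 20 running barcodes outside the core, and a difference in core cells was not detectable at this depth.

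The label was held against marker lists. Of 10 markers of Cxcl12-abundant reticular cells, 10 were detected in the members and 9 stood 8-fold or more over the other barcodes, against 6.23% of all genes compared. Cxcl12 itself, on which the members were selected, is 1 of the 10, and of the other 9, 8 stood 8-fold or more over. Without Cxcl12, the 9 genes made up a median of 1.72% of UMIs in ground core cells (0.611% to 3.44%) and 2.18% in running core cells (0.611% to 4.13%). In members outside the core the medians were 0.185% and 0.184%, and in the neutrophil gate 0.154% and 0.124%. The highest values of members outside the core were 0.771% and 0.714%, above the lowest core values. Those of the neutrophil gate, 0.635% and 0.612%, were also above the lowest core values. Of 12 endothelial markers, 10 were at 0 in all 69 members, Cdh5 by the rule. All 6 muscle markers were at 0. Of 9 osteoblast or osteocyte markers, 6 were detected, among them Ibsp with 675 UMIs and Mmp13, a collagenase gene, with 133, both 8-fold or more over the rest. The other 3, Bglap, Bglap2 and Dmp1, which mark mature osteoblasts and osteocytes, were at 0. That list reached 2.63% of UMIs in a ground core cell and 2.43% in a running core cell. Of 8 pericyte or smooth muscle markers, 5 were detected, Mylk with 63 UMIs and Notch3 with 25 being 8-fold or more over the rest, and Myh11, Tagln and Cspg4 were at 0. Plin1, Cidec and Lep of mature adipocytes and Acan, Chad, Cnmd and Col10a1 of cartilage were at 0 as well. A floor of 3 UMIs was taken for each 0, in the members' 340919 UMIs, of which the core held 112741.

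Together the 69 members held most of the series' transcripts for the genes that named them, although they were 0.381% of its barcodes. They held 81.8% of all Cxcl12 UMIs past the filters, 92.4% in the ground and 77.2% in the running library. Selection on Cxcl12 raises that share by construction. Of genes the rule did not use, they held 83.1% of Lepr, 79.7% of Adipoq and 72.0% of Kitl UMIs. The transcription factor genes Ebf3 and Foxc1, which maintain the reticular cell state, had 88.0% and 86.1% of their UMIs there. Igfbp5 had 87.3% and Gas6, a ligand of the TAM receptors, 80.5%. By contrast 4.9% of Vcam1 UMIs lay in members. Macrophages express this adhesion gene too, at 1679 CPM (UMIs scaled to the summed total of the barcodes) in barcodes with C1qa and C1qb.

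Relative to the other barcodes, 176 of 2823 genes with at least 20 UMIs in the members (6.23%) were 8-fold or more over the rest. The members were selected on this contrast, so these ratios only describe them. Cxcl12 stood at 10592 CPM in the members and 4.9 CPM elsewhere, a ratio of 711 with 10 CPM added to both. Igfbp5, an insulin-like growth factor binding protein, followed with a ratio of 424 and Ibsp, bone sialoprotein, with 175. Gas6 had a ratio of 118, the collagen-binding protein gene Sparc 100.2 and Kitl 96.5. Matrix and surface genes filled much of the rest of the top 20, among them Col1a2 at 66.3, Bgn at 65.9, Tnc at 64.8 and Cdh11 at 59.7. In the core alone the ratios were larger, 1909 for Cxcl12 and 269 for Kitl.

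**Figure D2:**
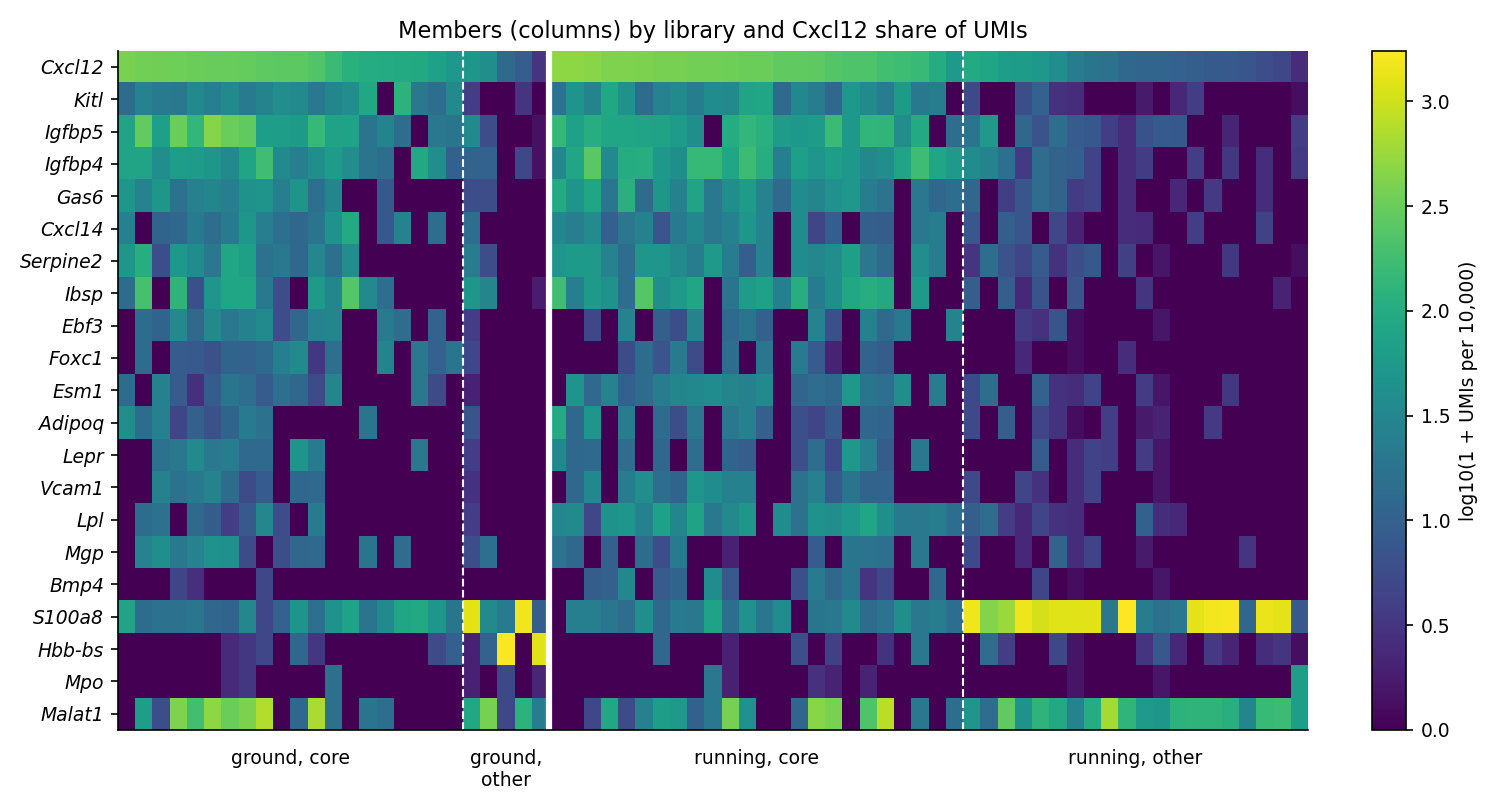
Rows are genes and columns are the 69 members, ordered by library, then core or other, then Cxcl12 share. Colour is log10(1 + UMIs per 10000 UMIs). Core cells of both libraries carry Kitl, Igfbp5 and Igfbp4, while 18 of the 25 barcodes outside the core carry high S100a8 or Hbb-bs, some of them beside stromal transcripts.

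Kitl, Adipoq and Lepr were not used by the rule and so describe how uniform the cells were. A UMI of Kitl was found in 42 of 44 core cells, of Adipoq in 25 and of Lepr in 25. All 3 genes were found in 20 core cells and none of them in 2. Outside the core, Kitl was found in 11 of 25 members, Adipoq in 10 and Lepr in 7, and 9 had none of the 3. In the neutrophil gate, Kitl was seen in 0.0941% of ground and 0.225% of running barcodes, far below its share in the core. Among barcodes with C1qa and C1qb, Kitl was seen in 6.12% of ground and 20.6% of running ones. When each core cell was thinned to 500 UMIs, Kitl was seen in 90.0% of ground and 87.5% of running core cells. At that depth Adipoq was seen in 7 of 20 ground and 9 of 24 running core cells, and Lepr in 6 and 8. Thinning can only lower detection, so these counts do not tell depth apart from a difference between cells.

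The niche factors came next. In the core, Cxcl12 reached 26485 CPM in the ground library (24992 to 28044) and 29718 CPM in the running library (28439 to 31038). Kitl stood at 2840 CPM (2366 to 3382) and 2940 CPM (2547 to 3375), values whose intervals overlap. Csf1, the macrophage growth factor gene, was at 406 and 570 CPM, and Il7, which supports B cell precursors, at 316 and 278 CPM. The chemokine gene Cxcl14 was at 2051 and 1521 CPM. Fgf7, keratinocyte growth factor, was at 383 and 322 CPM. Thpo, Epo, Il6 and Dlk1 were not detected in any member.

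Genes of adipocytic and bone lineages were found in the same cells. Col1a2 was present in 65.9% of core cells and Ibsp in 77.3%, while the mature osteoblast gene Bglap was at 0. Apoe, a lipid carrier gene, was present in 84.1% of core cells and Lpl, lipoprotein lipase, in 72.7%. Runx2, the osteoblast master regulator, was seen in 45.5% and Cebpa, an adipogenic factor, in 38.6%. Runx1 was seen in 81.8% and Ebf1 in 63.6%. Among receptors, Pdgfra was found in 19 of 44 core cells and Pdgfrb in 22.

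**Figure D3:**
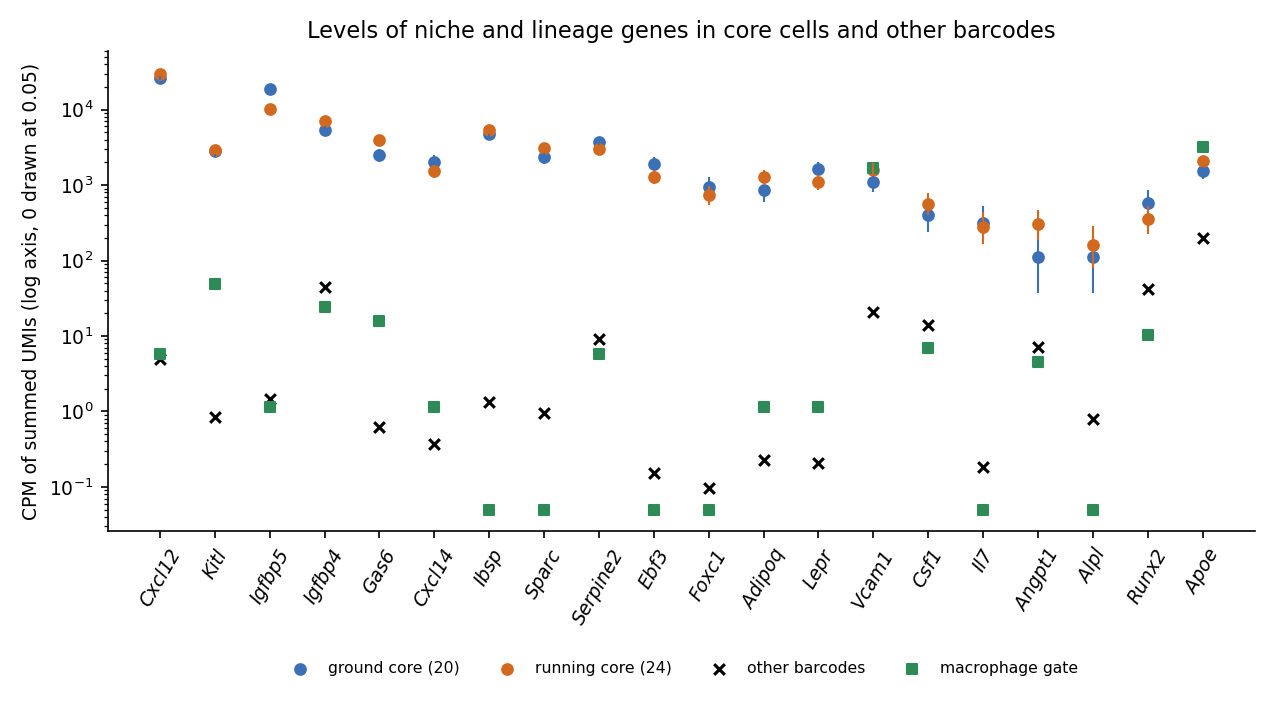
Level from summed UMIs (CPM, log axis, 0 drawn at 0.05) of 20 genes in ground core cells (20) and running core cells (24) with 95% Poisson intervals, in all other barcodes and in the macrophage gate. Ebf3, Foxc1, Adipoq and Lepr lie between 731 and 1916 CPM in the core and under 2 CPM elsewhere, whereas Vcam1 and Apoe are at least as high in macrophages.

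For running over ground, the sums over all members and over the core gave different pictures. Across the 69 members, 333 of 1728 genes with at least 30 UMIs (19.3%) were 2-fold or more higher in running and 174 (10.1%) 2-fold or more lower, with a median log2 ratio of 0.17 over all genes. Across the core, 50 of 515 genes (9.71%) were 2-fold or more higher and 24 (4.66%) lower, with a median of 0.15. Quality-related genes differed between the libraries too. In the members 58 of 80 cytosolic ribosomal protein genes and 9 of 11 mitochondrially encoded genes were 2-fold or more higher in running, with list medians of 1.22 and 1.12. In the core 4 of 78 and 2 of 10 were, with medians of 0.30 and 0.56, and all 10 mitochondrial genes were above 0. Their part in the other ratios was not tested. The genes with the highest member ratios included the leukocyte gene Itgam, and Ptprc was among those that led the members outside the core. Running members outside the core held 184362 of the 252739 running UMIs, and ground members outside it 43816 of 88180. What this did to the ratios of stromal genes was not tested. Cxcl12 had a log2 ratio of -0.60 in the members and 0.17 in the core, Kitl -0.74 and 0.05, and Adipoq -0.32 and 0.57. Lepr was lower in both, at -1.22 and -0.57, as were Igfbp5 at -1.65 and -0.89 and Ebf3 at -1.39 and -0.57. The values below are for the core, with the value over all members beside those that matter.

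Lpl, which releases fatty acids from lipoproteins, was higher in running core cells. The ground core held 37 Lpl UMIs in 9 of 20 cells, 834 CPM (587 to 1150), and the running core 313 UMIs in 23 of 24 cells, 4578 CPM (4084 to 5114). The log2 ratio was 2.46 (1.96 to 2.99) in the core and 1.59 over all members. Per cell, Lpl had a median of 0 and a highest of 31.1 UMIs per 10000 in ground core cells. In running core cells the median was 33.8 and the highest 80.9, so the upper ground cells overlap the lower running cells. The richest running cell held 75 of the 313 UMIs. In the RefSeq annotation of GRCm38.p6 (mm10), Lpl lies on chromosome 8 from 68880555 to 68906932. With every core cell thinned to 500 UMIs, Lpl was seen in 3 of 20 ground and 18 of 24 running cells. Lpl was also higher elsewhere in the running library, at 928 against 440 CPM in the macrophage gate and 36.3 against 6.54 CPM over all other barcodes. In the B lineage gate, which should lack it, it stood at 3.22 and 0.581 CPM.

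**Figure D4:**
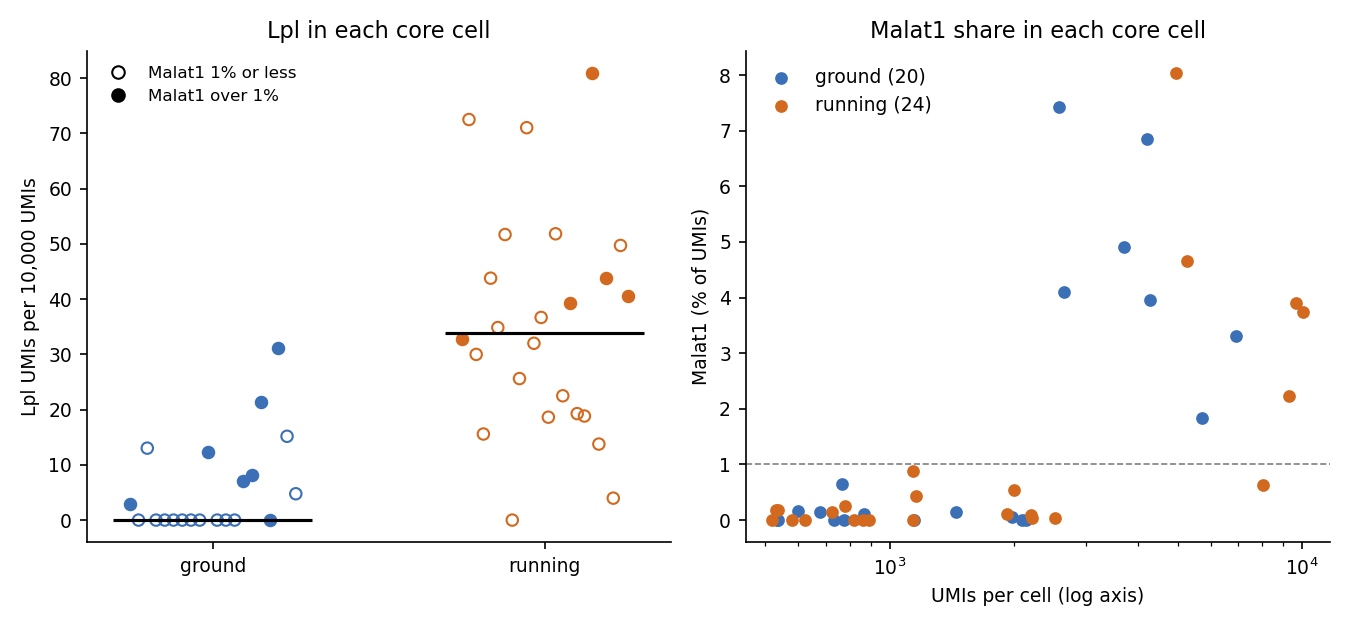
Left, Lpl UMIs per 10000 UMIs in each core cell by library, with the library median as a line and filled points for cells with over 1% Malat1. Right, the Malat1 percentage of UMIs against UMIs per cell (log axis). The median Lpl value is 0 in ground and 33.8 in running, and the cells over 1% Malat1 all hold at least 2569 UMIs.

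Modulators of BMP and Wnt signalling were among the genes that differed most. Of 11 such genes that could be compared in the core, 5 were 2-fold or more higher in running and 2 lower, beside 9.71% and 4.66% of all genes compared. Their median log2 ratio was 0.40 against 0.15 over all genes. Bmp4, a BMP ligand, had 3 UMIs in 3 ground core cells and 56 UMIs in 14 running core cells, a log2 ratio of 3.60 (1.98 to 5.92). Sfrp1, a secreted Wnt antagonist, had 2 UMIs in 1 ground cell and 46 UMIs in 10 running cells, a log2 ratio of 3.90 (1.96 to 6.99). Over all members the log2 ratios were 2.80 and 3.04. On GRCm38.p6, Bmp4 lies on chromosome 14 from 46383525 to 46390669 and Sfrp1 on chromosome 8 from 23411383 to 23449632. The BMP antagonist genes Chrdl1 and Fst, the latter an activin binder as well, had log2 ratios of 1.20 (0.60 to 1.83) and 1.13 (0.22 to 2.15). Rspo3, which enhances Wnt signalling, had 1.38 (0.23 to 2.70). Those lower were Grem1, another BMP antagonist, at -1.38 (-2.49 to -0.33), and Ltbp1, which tethers latent TGF-beta, at -1.62 (-2.88 to -0.46). Neither direction held throughout. In the core cells with at most 1% Malat1, described further on, Grem1 was at 0.29 and Ltbp1 at 0.56, and Grem1 was at 0.17 as a mean over cells. Bmp4 and Sfrp1 were nearly absent from other barcodes, with 6 and 0 UMIs in the ground library and 10 and 5 in the running library.

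Matrix genes as a list differed little. Of 17 fibrillar and basement membrane genes compared in the core, none was 2-fold or more higher and 1, Mgp, was lower. Over all genes compared the shares were 9.71% and 4.66%. The list median was 0.20 against 0.15 over all genes. Mgp, an inhibitor of calcification, had 87 UMIs in 12 ground cells and 41 UMIs in 12 running cells, or 1961 CPM against 600 CPM. Its log2 ratio was -1.71 (-2.28 to -1.16). Per cell its median was 8.1 UMIs per 10000 in ground and 0.5 in running, and the highest ground cell had 45.8. The cells of the 2 libraries overlapped. Among barcodes that were not members, Mgp went the other way, with 10 UMIs in 8 ground and 51 UMIs in 10 running barcodes. Igfbp5 was at 18686 CPM in ground (17436 to 20003) and 10076 CPM in running (9338 to 10858), which gave -0.89 on the log2 scale. Its per-cell medians lay on the other side, at 69.7 UMIs per 10000 in ground and 75.2 in running, with highest values of 445 and 161. The 7 ground cells richest in Malat1, described further on, held 749 of the 829 ground UMIs. In barcodes that were not members, Igfbp5 had 35 UMIs in 26 ground and 206 UMIs in 36 running barcodes. Igfbp3 had a log2 ratio of -1.83 (-3.06 to -0.70) and Igfbp4 of 0.40 (0.18 to 0.63). Tnc, a glycoprotein of stretched and healing tissue, had 1.28 (0.80 to 1.78), and Esm1, a proteoglycan gene, 1.03 (0.52 to 1.57). Over all members Tnc was at 0.39 (-0.08 to 0.89) and Esm1 at 0.33 (-0.16 to 0.85), intervals that include 0. The richest running core cell held 69 of the 172 running core Tnc UMIs.

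Of 12 niche factors compared in the core, Bmp4 was 2-fold or more higher and Spp1 lower, beside 9.71% and 4.66% of all genes. The list median was 0.11 against 0.15 over all genes. Spp1, osteopontin, had 36 UMIs in 10 ground and 27 UMIs in 12 running core cells and a log2 ratio of -1.04 (-1.82 to -0.28). In core cells with at most 1% Malat1 it was at 699 and 616 CPM. In those with over 1% Malat1 it was at 865 and 230 CPM, the latter from 9 UMIs in 1 cell. Gas6 had 0.68 (0.35 to 1.01), Vcam1 0.54 (0.04 to 1.06) and Cxcl14 -0.43 (-0.85 to -0.01). Cxcl14 turned to 0.32 in core cells with at most 1% Malat1. Of 11 stromal transcription factors, 9 had log2 ratios below 0, beside 218 of all 515 genes, with a list median of -0.50. Of the 11, 1 was 2-fold or more lower, beside 4.66% of all genes, namely Tcf4 at -1.62 (-2.76 to -0.57). Ebf3 was at -0.57 (-1.02 to -0.13), or 0.02 in the cells with at most 1% Malat1, and Foxc1 at -0.37 (-0.99 to 0.25). Over all members the medians were -0.67 for niche factors and -1.07 for transcription factors. Of 5 MHC class I genes compared in the core, none passed 2-fold, beside 9.71% of all genes higher and 4.66% lower. Their list median was 0.53. H2-K1, H2-D1 and B2m had log2 ratios of 0.58, 0.53 and 0.63.

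**Figure D5:**
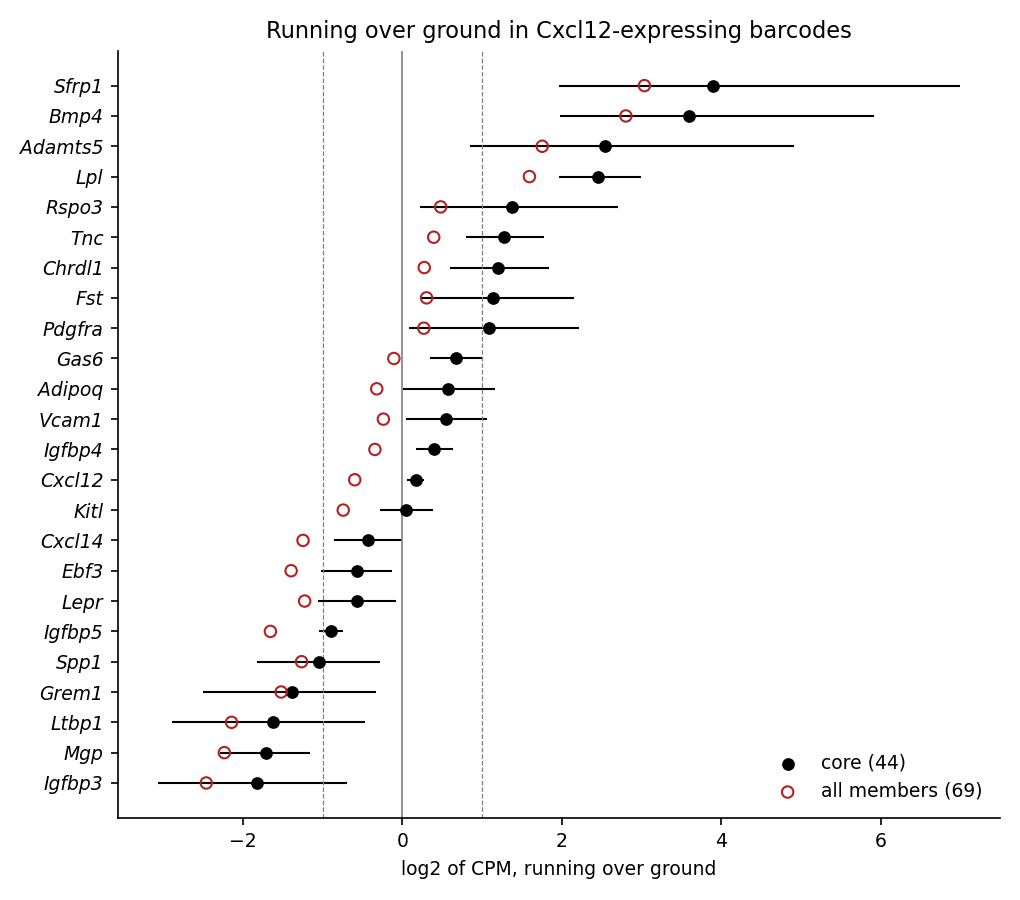
Log2 ratio of CPM, running over ground, for 24 genes. Filled points with 95% counting intervals are the core and open circles are all 69 members, dashed lines mark 2-fold. Sfrp1, Bmp4 and Lpl lie right of the upper line in both sets and Mgp and Igfbp3 left of the lower line in both, while Cxcl12, Adipoq and Gas6 lie on opposite sides of 0 in the core and in all members.

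Malat1 split the core into a mostly shallow Malat1-poor part and a deeper Malat1-rich part, with the limit set after the values were seen. Malat1 is a nuclear long noncoding RNA. In 32 core cells, 13 ground and 19 running, it made up at most 1% of UMIs, and 14 of these had no Malat1 UMI. The other 12, 7 ground and 5 running, had median shares of 4.11% and 3.91%. Median depth was 777 and 889 UMIs in the Malat1-poor cells and 4215 and 9271 UMIs in the Malat1-rich cells. Mitochondrial transcripts had medians of 0.167% and 0.238% in the former and 2.69% and 1.96% in the latter. Barcodes without Malat1 were 0.527% and 0.244% of the neutrophil gate but 44.9% and 38.9% of the macrophage gate.

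This split was set beside the group differences. Lpl was higher in running in both parts, at 350 and 4246 CPM in the Malat1-poor cells and 1064 and 4825 CPM in the Malat1-rich cells. Mgp was at 979 and 479 CPM in the Malat1-poor cells, from 14 UMIs in each library, too few to fix a direction. In the Malat1-rich cells it was lower in running, at 2428 and 689 CPM from 73 and 27 UMIs. Bmp4 was at 0 and 788 CPM and at 99.8 and 842 CPM. Igfbp5 was at 5594 and 7157 CPM in the Malat1-poor cells and at 24915 and 12253 CPM in the Malat1-rich cells, so it was lower in running in the latter only. Cxcl12 was at 19158 and 35235 CPM in the former and at 29971 and 25604 CPM in the latter. Gdpd2, a membrane phosphodiesterase gene, had a log2 ratio of -1.43 over the core, 1.84 in the Malat1-poor cells and -1.86 in the Malat1-rich cells. The part of the split in the summed ratios was not tested further.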

How the data were processed

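The deposited matrices hold raw UMI counts per gene and barcode, made by the authors with Cell Ranger 5.0.0, per the file headers. The submitters' processing notes name STAR and mm10. Counts were summed over barcodes and divided by the summed total (CPM), with exact Poisson, Clopper-Pearson and conditional binomial 95% intervals. Only the conditional binomial interval and the 2-fold limit were tried on simulated data. Those were Poisson counts, without the spread between cells. Python 3.11.15, numpy 2.4.6, scipy 1.17.1 and scanpy 1.11.5 (Scrublet) were used. Libraries held 84591119 (ground) and 79458339 (running) UMIs past the filters. Comparisons of running with ground used genes with at least 30 UMIs in at least 10 cells of the set, and 2-fold as the limit, with no test. Blood-cell markers were 45 genes. Vcam1, Ebf1, Fn1, Hmox1 and Xbp1 were dropped from them because stroma expresses them. Genes were named from the lists with at least 30 UMIs in the members, or when undetected, and from rankings by ratio. The members and lists were chosen with earlier results of these data known. Malat1, its 1% limit, Siglech, the genes that led the members outside the core, and the core itself were chosen after the values were seen. Ccl19 was listed but matched no row of the feature files. Sequences were not used here.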

Additional observations from a re-analysis of the deposited data

Results flagged for a closer look

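Outside the compared barcodes, 7 barcodes with at least 3 Cxcl12 UMIs failed the filters, 1 in the ground and 6 in the running library. Their mitochondrial share ran from 10.04% to 31.6% and they held up to 74 Cxcl12 UMIs, and 6 of the 7 had a UMI of Adipoq, Lepr or Kitl. This is a signal in data the report does not use, and its source was not tested.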

How the results depend on the processing

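The share ratio stayed above 1 under 9 alternatives, from 1.16 to 1.94, and its interval included 1 under 7 of them. The Malat1-rich core cells were not among these alternatives. Their shares lay the other way, at 0.0786% in ground (0.0316% to 0.162%) and 0.0545% in running (0.0177% to 0.127%). The 176 genes 8-fold over the other barcodes became 281 in the core. Of the 333 higher and 174 lower genes of the members, the counts were 520 and 268 with at least 2 Cxcl12 UMIs, 695 and 540 with a minimum of 10 UMIs, 129 and 33 with 100 UMIs, and 50 and 24 in the core. The 50 higher and 24 lower genes of the core became 260 and 140 without the Cxcl12 share, 14 and 15 in Malat1-rich cells, and 30 and 14 without the deepest core cell of each library. In Malat1-poor cells 10 were lower. More or fewer genes and cells enter by construction. In log2 terms, among recomputed genes past 2-fold in the core, Gdpd2 (1.84), Grem1 (0.29), Ltbp1 (0.56) and Il1r1 (2.43) turned in Malat1-poor cells, Grem1 also under the mean over cells (0.17), and Plpp3 (-0.026) without the Cxcl12 share. Below 2-fold, Igfbp5 (0.36), Lepr (0.72), Cxcl14 (0.32) and Ebf3 (0.02) turned in Malat1-poor cells; the cause was not tested. No paired analysis was possible because each group has 1 library. Depth limits genes under 30 UMIs.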

Other observations

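Of 28 interferon-response genes, 4 could be compared in the core, and 1 was 2-fold or more higher in running and none lower. Among all core genes compared, 9.71% were higher and 4.66% lower. The list median log2 ratio was 0.56. Cxcl9, an interferon-induced chemokine gene, was at 0 in the ground core and had 42 UMIs in 5 running core cells, 37 of them in 1 cell. The running level was at least 9.08-fold higher than the floor of 3 UMIs over the ground core. Bst2, an interferon-induced membrane protein gene, had 2 UMIs in 2 ground cells and 29 UMIs in 11 running cells, with a log2 ratio of 3.23 (1.25 to 6.35) and no cell above 6 UMIs. Iigp1 had 19 UMIs in 5 ground cells and 54 UMIs in 14 running cells, with a log2 ratio of 0.88 (0.11 to 1.72). Fos had 17 UMIs in 2 running core cells, 16 of them in 1.

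A gate on Cdh5 with Pecam1 or Emcn, meant to give endothelial cells for comparison, held 77 barcodes, 75 of them with Siglech and 1 with Emcn. Siglech marks plasmacytoid dendritic cells, so the gate was not used as an endothelial reference. Among the 10 barcodes that Cd79a removed, 8 held a UMI of Adipoq, Lepr or Kitl, with 66 Kitl and 25 Lepr UMIs in all.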
